A study of Homo sapiens with 9 samples.

Results

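Tubulin genes encode the subunits of microtubules, and 10 of their symbols were followed here: the alpha-tubulins TUBA1A, TUBA1B, TUBA1C and TUBA4A, and the beta-tubulins TUBB, TUBB2A, TUBB2B, TUBB3, TUBB4B and TUBB6. Entries were matched by symbol, with no measured value used in the match. TUBB3 stands under 2 gene identifiers in the deposited tables, so 11 of 31558 listed genes were described, 4 of them alpha and 7 beta. All were measured by RNA-seq of polyA RNA (151 nt paired-end reads) in HCT116, a human colorectal cancer cell line of epithelial origin. CRLM1-OE cells stably overexpressed the long non-coding RNA CRLM1, Ctrl cells carried the free plasmid and Anti cells carried the antisense sequence of CRLM1, with 3 biological replicates of each. All 3 groups were thus vector-bearing derivatives of a single line, and the study's methods name a lentiviral pTSB-GFP-puro vector with puromycin selection for CRLM1 expression. The comparisons asked which transcripts differed with CRLM1 against each control. Nothing in the labels shows that the replicates were separate transductions, so p-values concern these samples only. The edgeR fits also draw on all genes to estimate the spread of each gene. Their p-values can thus be smaller than the spread between a gene's own samples would give.

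Alpha- and beta-tubulin join as a heterodimer, and heterodimers stack into the wall of the microtubule, which carries cargo, shapes the cell and builds the mitotic spindle. The genes of a class encode closely similar bodies and differ mainly in the acidic C-terminal tail, where motors bind and modifying enzymes act. Cells also hold tubulin mRNA in check by autoregulation, in which TTC5 recognises the start of nascent tubulin on the ribosome and the mRNA is degraded when free subunits are in excess.

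The coding ends of 4 beta-tubulins are shown because they encode the tail, and they were read from GENCODE v44 transcripts on GRCh38. Each of the following lines gives the last 60 coding bases, stop codon included, in 5′ to 3′ order. Capitals mark bases that differ, in an alignment of the whole coding sequences, from TUBB.
TUBB: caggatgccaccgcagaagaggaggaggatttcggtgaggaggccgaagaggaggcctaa
TUBB2A: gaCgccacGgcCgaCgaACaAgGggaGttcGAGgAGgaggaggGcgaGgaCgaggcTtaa
TUBB2B: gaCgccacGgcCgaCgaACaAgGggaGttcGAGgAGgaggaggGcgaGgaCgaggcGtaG
TUBB4B: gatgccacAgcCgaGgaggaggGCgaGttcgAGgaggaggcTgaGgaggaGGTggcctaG
Over these 60 bases TUBB4B differed from TUBB at 14, TUBB2A at 18, TUBB2B at 19, TUBB6 at 23 and TUBB3 at 32. TTC5 reads the start of the protein, so the start of each coding sequence is given too. For TUBB3 the start listed with TUBB6 is that of the gene itself. The transcript of its other identifier, a read-through of MC1R and TUBB3, starts with atgGCTGTGCAG. The first 12 coding bases, where capitals mark codons 2 to 4, read atgCGTGAGTGC in TUBA1A, TUBA1B and TUBA1C and atgCGTGAATGC in TUBA4A. They read atgAGGGAAATC in TUBB and TUBB4B, atgCGCGAGATC in TUBB2A, atgCGTGAGATC in TUBB2B and atgAGGGAGATC in TUBB3 and TUBB6.

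Shared sequence bears on how far reads can be assigned, because the authors counted uniquely mapped reads. Over the whole coding sequence TUBA1A and TUBA1B were 97.2% identical, TUBA1B and TUBA1C 96.8%, TUBB2A and TUBB2B 98.1%, TUBB and TUBB4B 84.4% and TUBA1A and TUBB 54.1%. Of all 151-base windows of the canonical transcript, 48.6% of TUBB2A and 41.5% of TUBB2B also occurred in another gene, mostly in each other. For TUBA1A this share was 7.82%, and for TUBB4B and TUBB6 it was 0.0%. For TUBA1B it was 64.2%, mainly because the antisense gene TUBA1B-AS1 covers it, and whether strand was used in counting is not given in the sources used here. The share was 25.4% for TUBA1C, 25.2% for TUBA4A, in windows that also lie in STK16, and 19.1% for TUBB. In TUBA1B, TUBA1C, TUBA4A and TUBB most shared windows lie in an opposite-strand gene at the same place. Reads there can still map once, and what is uncertain is the gene they count for. In TUBB2A and TUBB2B most shared windows lie at another place, so such reads need not map uniquely. The windows come from GENCODE v44, whereas the authors counted with version 23. How far either kind of sharing moved the levels was not tested.

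The genes lie on 6 chromosomes (GRCh38, GENCODE v44). TUBA1B (chromosome 12, 49127782 to 49131397) and TUBA1A (chromosome 12, 49184686 to 49189080) lie on the reverse strand with 53288 bp between them. TUBA1C (chromosome 12, 49188736 to 49274600) runs on the forward strand and shares 345 exonic bases with TUBA1A. TUBB2A (chromosome 6, 3153497 to 3157544) and TUBB2B (chromosome 6, 3223324 to 3231730) are reverse-strand neighbours 65779 bp apart, and TUBB (30717435 to 30725538) lies on the forward strand of the same chromosome. TUBA4A lies on chromosome 2 (219249710 to 219277902, reverse), TUBB4B on chromosome 9 (137241287 to 137243707, forward) and TUBB6 on chromosome 18 (12307669 to 12344320, forward). The 2 TUBB3 entries lie on the forward strand of chromosome 16. ENSG00000258947 (89921392 to 89938761) is the gene itself, and ENSG00000198211 (89919165 to 89936092) is a read-through of MC1R and TUBB3 that shares 57.1% of its exonic bases with TUBB3 and 42.9% with MC1R.

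Total counts ranged from 33302292 to 44514692 per sample, and no library stood apart in depth. CRLM1 had between 32751 and 38704 counts in CRLM1-OE, 0 in all Ctrl samples and between 1540 and 1951 in Anti, where CRLM1 RNA and its antisense cannot be told apart without strand. Keratins and EPCAM were abundant, with summed levels of the 5 epithelial markers between 4569 and 5556 FPKM. Markers of other cell types stayed under 50 counts in every sample for 6 of 7 neuronal, 2 of 2 listed blood and 6 of 7 stromal genes, the exceptions being SYT1 and COL1A1. In bulk RNA, fewer cells that use a gene and less RNA per cell cannot be told apart.

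HCT116 cells used a few tubulin genes heavily. Levels are compared between genes only as FPKM, which the authors scaled for exon length. In Ctrl, TUBA1B had the highest FPKM of the alpha genes at 263 ± 5.67 (SD, n = 3), followed by TUBA1C at 76.4 ± 0.809, TUBA4A at 12.2 ± 0.267 and TUBA1A at 9.12 ± 0.459. TUBB, the main beta gene of dividing cells, stood at 188 ± 1.61 FPKM in Ctrl and TUBB4B, a beta gene also known from cilia, at 126 ± 0.904. The read-through entry of TUBB3 (35.8 ± 0.675 FPKM) and TUBB2A (35.0 ± 0.120) were neighbours in this order that differed by little more than their spread, and TUBB6 followed at 30.0 ± 0.632. TUBB2B (0.760 ± 0.0300 FPKM) and the gene entry of TUBB3 (0.193 ± 0.0513) were near the bottom, with at most 106 and 42 counts in any of the 9 samples.

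**Figure D1:**
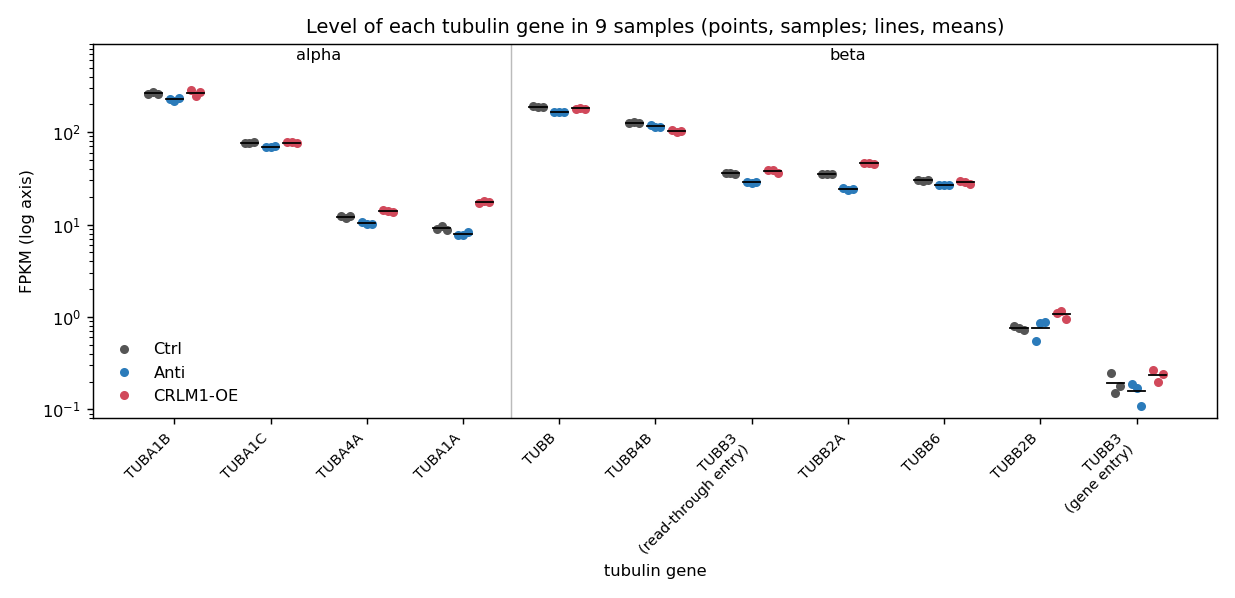
The plot shows the FPKM of each tubulin gene (log axis) in the 3 samples of Ctrl, Anti and CRLM1-OE, with alpha genes on the left, beta genes on the right, points for samples and lines for means. TUBA1A in CRLM1-OE (17.2 to 18.2 FPKM) and TUBB2A in all 3 groups form separate clusters of points, whereas the groups of TUBA1C lie close together.

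The order of the alpha genes changed in CRLM1-OE: TUBA1A reached 17.7 ± 0.461 FPKM (SD, n = 3) and lay above TUBA4A at 14.0 ± 0.472, whereas it lay below TUBA4A in every Ctrl and Anti sample. Among the beta genes, TUBB2A in CRLM1-OE (46.1 ± 0.643 FPKM) lay above the TUBB3 read-through entry (38.1 ± 1.58). In Anti, TUBB2A was at 24.3 ± 0.764 FPKM, below both that entry (28.7 ± 0.386) and TUBB6 (26.8 ± 0.199).

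Differences between groups were tested on counts with edgeR's quasi-likelihood test and TMM scaling, and the p-values were Benjamini-Hochberg adjusted over all genes tested, so that "edgeR adjusted p" below always means this. A gene was called up- or down-regulated at an adjusted p of at most 0.05. Per-sample values in these comparisons are counts on the TMM scale relative to library size (CPM), which are comparable between samples of a gene but not between genes.

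Against Ctrl, 2 of the 11 tubulin entries were up-regulated in CRLM1-OE, 5 were down-regulated and 4 did not pass, while over all 29846 genes tested 15% were up- and 16.8% down-regulated. Among the 11716 genes that averaged 100 or more counts, a level that 9 of the 11 entries reach, these shares were 29.2% and 38.8%. All tubulin calls fell among those 9 entries. They averaged from 1495.5 (TUBA1A) to 26808 (TUBB) counts, far above that limit, so this background is not matched to their depth. The samples did not overlap for 4 entries that were higher and 4 that were lower, beside 18.3% and 19.3% of all genes tested. With total counts in place of TMM factors the split was 6 up and 1 down, since that scaling moves the median of those genes from -0.04 to 0.10 on the log2 scale. TUBA1A and TUBB2A were higher and TUBB4B lower under every alternative run, but the direction of TUBA1B and TUBA1C flipped with the scaling, and the calls of TUBB and TUBB6 were lost with total counts, while TUBA4A, TUBB2B and the read-through entry of TUBB3 gained one.

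TUBA1A, an alpha gene best known from the developing brain, had the largest difference. It measured 48.6, 50.8 and 50.5 CPM in the CRLM1-OE samples, 27.1, 29.6 and 26.8 in Ctrl, and 22.4, 22.7 and 24.1 in Anti. Every CRLM1-OE sample lay above every control sample, and the Anti samples lay below those of Ctrl. TUBA1A rose 1.79-fold against Ctrl (log2 fold change 0.84 ± 0.05 SE, edgeR adjusted p = 1.35e-75) and 2.17-fold against Anti (log2 1.12 ± 0.05 SE, edgeR adjusted p = 1.93e-129). Its log2 fold change against Ctrl stayed between 0.83 and 0.99 over all alternatives, with adjusted p up to 4.43e-05 in limma on FPKM.

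TUBA1B, the most abundant alpha gene and a close sequence relative of TUBA1A, had no such difference. It measured 504, 433 and 491 CPM in CRLM1-OE, 497, 522 and 500 in Ctrl samples and 417, 396 and 435 in Anti. Replicate 1 of CRLM1-OE lay within the range of Ctrl and replicate 2 within that of Anti, so these groups overlapped. The log2 fold change was -0.09 against Ctrl (SE 0.02, edgeR adjusted p = 0.000252). This call was not kept under total counts, where the value was 0.05 (adjusted p = 0.0388, and 0.78 at most over the alternatives). It was lost with filterByExpr (-0.07, adjusted p = 0.0520) and with DESeq2 (-0.08, adjusted p = 0.335). The same held without CRLM1-OE replicate 2 (-0.03, adjusted p = 0.477) or Ctrl replicate 2 (-0.06, adjusted p = 0.0611). Against Anti the log2 fold change was 0.20 (SE 0.02, edgeR adjusted p = 6.87e-24), with an adjusted p of 0.0269 at most over the alternatives.

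TUBA1C, also broadly expressed, spanned 288 to 295 CPM in CRLM1-OE, 310 to 317 in Ctrl samples and 269 to 276 in Anti. The 3 groups did not overlap, but the differences were small. The log2 fold change was -0.10 against Ctrl on the TMM scale (SE 0.02, edgeR adjusted p = 0.000117), 0.04 with total counts (adjusted p = 0.208), and 0.10 against Anti (SE 0.02, edgeR adjusted p = 7.12e-06). TUBA4A, the alpha gene whose product ends without the encoded tyrosine that other alpha-tubulins carry, measured 42.2, 40.4 and 39.9 CPM in CRLM1-OE, 38.7, 37.8 and 39.1 in Ctrl samples and 32.3, 30.8 and 30.4 in Anti. Its CRLM1-OE samples lay above both controls. The difference did not pass against Ctrl (log2 0.08 ± 0.04 SE, edgeR adjusted p = 0.148), but did with total counts (0.23, adjusted p = 2.19e-06), with filterByExpr and in limma, and passed against Anti (log2 0.39 ± 0.04 SE, edgeR adjusted p = 2.74e-17).

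Of the beta genes, TUBB2A rose and TUBB4B fell in CRLM1-OE. TUBB2A, a beta gene abundant in neurons, measured 81.6, 79.3 and 80.3 CPM in CRLM1-OE, 65.5, 66.6 and 66.0 in Ctrl samples, and 44.8, 42.4 and 44.3 in Anti. These groups did not overlap, with CRLM1-OE highest and Anti lowest. The difference was 1.22-fold against Ctrl (log2 0.29 ± 0.03 SE, edgeR adjusted p = 3.4e-15) and 1.84-fold against Anti (log2 0.88 ± 0.04 SE, edgeR adjusted p = 4.36e-131). TUBB2A had at least 1559 counts in every sample, and its near copy TUBB2B at most 106.

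TUBB4B was the only member below both controls in CRLM1-OE with a passed test. It measured 188, 180 and 184 CPM in CRLM1-OE, 242, 248 and 244 in Ctrl samples, and 219, 211 and 212 in Anti. Again the groups did not overlap, and here Ctrl was highest. The level in CRLM1-OE was 0.751 of that in Ctrl (log2 -0.41 ± 0.03 SE, edgeR adjusted p = 1.49e-56) and 0.861 of that in Anti (log2 -0.22 ± 0.02 SE, edgeR adjusted p = 4.08e-19). With total counts the log2 fold change against Ctrl was -0.27. No 151-base window of its transcript occurred in another gene.

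TUBB spanned 660 to 667 CPM in CRLM1-OE, 741 to 751 in Ctrl samples and 620 to 636 in Anti, so that CRLM1-OE lay between the controls without overlap. Its log2 fold change against Ctrl was -0.17 (SE 0.02, edgeR adjusted p = 2.59e-16) on the TMM scale and -0.03 with total counts (adjusted p = 0.292), and against Anti it was 0.09 (SE 0.02, edgeR adjusted p = 4.42e-06). TUBB6, a beta gene whose excess is known to disturb microtubule arrays, spanned 94.7 to 101 CPM in CRLM1-OE, 109 to 112 in Ctrl samples and 93.7 to 95.3 in Anti. It lay below Ctrl, with a log2 fold change of -0.18 (SE 0.03, edgeR adjusted p = 6.93e-08) that was -0.04 with total counts (adjusted p = 0.442), and overlapped Anti (log2 0.06 ± 0.03 SE, edgeR adjusted p = 0.12). The difference from Anti passed with total counts (0.12, adjusted p = 0.000147), with filterByExpr, in limma and without CRLM1-OE replicate 3 (0.10, adjusted p = 0.0105).

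Nearly all counts under the symbol of TUBB3, widely used as a neuronal marker, stood in the read-through entry, which also covers exons of MC1R, a melanocortin receptor. MC1R itself was listed with 152 to 321 counts per sample, against 3171 to 5191 for the read-through entry, and how many reads of that entry came from its MC1R exons was not tested. That entry measured 118, 117 and 111 CPM in CRLM1-OE, 119, 118 and 115 in Ctrl samples and 91.1, 89.3 and 90.2 in Anti. CRLM1-OE and Ctrl overlapped, and Anti lay below both. The log2 fold change was -0.02 against Ctrl (SE 0.03, edgeR adjusted p = 0.571), where its sign turned with the scaling, and 0.36 against Anti (SE 0.03, edgeR adjusted p = 5.79e-35). The gene entry had 25 to 42 counts in CRLM1-OE, 20 to 41 in Ctrl samples and 14 to 28 in Anti, and passed in neither comparison (edgeR adjusted p = 0.687 and 0.132). Summing both entries gave log2 fold changes of -0.02 and 0.36. In the annotation, 92.3% of the windows of the TUBB3 transcript also lie in the read-through transcript, and 2.25% occur outside the locus.

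TUBB2B, which serves in brain development, was measured at 106, 88 and 85 counts in CRLM1-OE, 80, 63 and 58 in Ctrl samples, and 51, 75 and 71 in Anti. On the CPM scale the CRLM1-OE samples (2.14 to 2.51) lay above those of Ctrl (1.74 to 1.89) and Anti (1.26 to 2.02). The difference did not pass against Ctrl (log2 0.37 ± 0.17 SE, edgeR adjusted p = 0.0884), but did with total counts (0.51, adjusted p = 0.0101), with filterByExpr and in limma, with an adjusted p of 0.224 at most in any alternative. It passed against Anti (log2 0.43 ± 0.17 SE, edgeR adjusted p = 0.0303), with adjusted p from 0.0116 to 0.395. Most windows of its transcript that are not unique occur in TUBB2A.

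**Figure D2:**
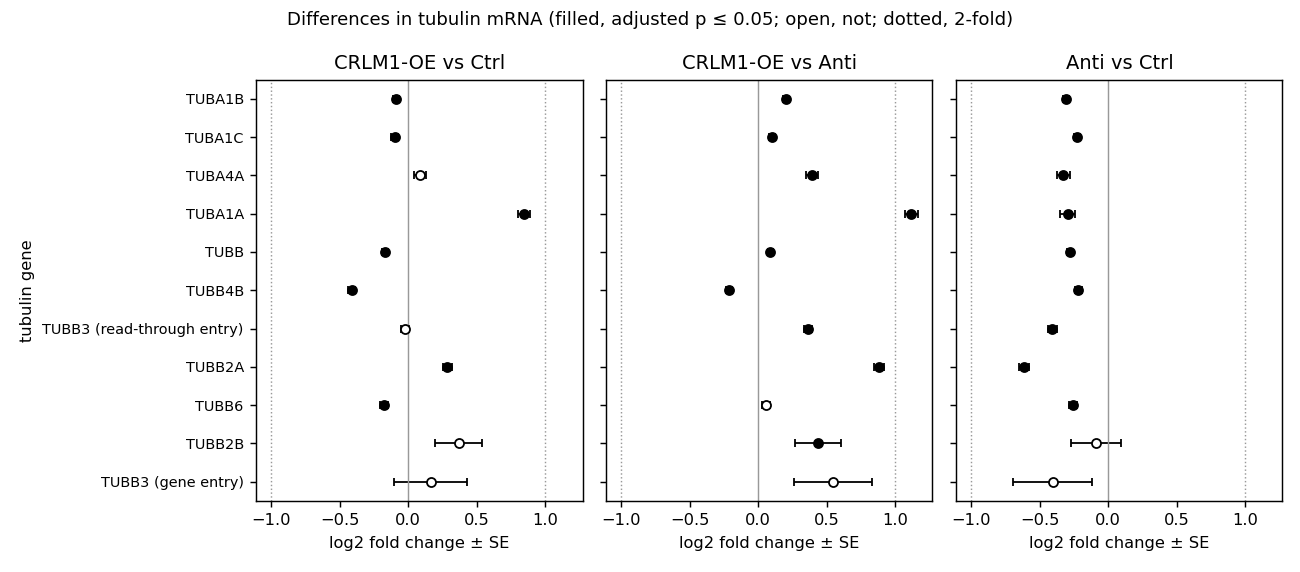
The panels plot the log2 fold change of each tubulin entry with its standard error for CRLM1-OE against Ctrl, CRLM1-OE against Anti, and Anti against Ctrl, with filled points for an adjusted p of at most 0.05 and dotted lines at a 2-fold difference. TUBA1A and TUBB2A lie to the right and TUBB4B to the left of 0 in both comparisons of CRLM1-OE, and 9 of 11 entries are filled and left of 0 in the third panel.

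Against Anti, 8 of the 11 entries were up-regulated in CRLM1-OE, 1 was down-regulated (TUBB4B) and 2 did not pass, beside 17.1% up- and 18.5% down-regulated among all 30183 genes tested and 33.9% and 40.2% among those averaging 100 or more counts. The median log2 fold change of the 11 entries was 0.36, and that of all genes tested -0.02. Against Ctrl the median of the entries was -0.02 and that of all genes tested 0.02. The samples did not overlap for 8 entries that were higher and for TUBB4B, beside 20.1% of all genes higher and 21% lower. Only TUBA1A against Anti also met the 2-fold limit that the study applied, which 5.65% of all genes met in that comparison and 3.41% against Ctrl. Both comparisons use the same CRLM1-OE samples, so their values stand side by side and do not support each other.

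The antisense control itself had less tubulin mRNA than the free plasmid control. In Anti against Ctrl, 9 of the 11 entries were down-regulated, none was up-regulated, and the samples of those 9 did not overlap, beside 12.2% of all 29714 genes down-regulated, 14% whose samples did not overlap in that direction, 11.5% up-regulated and 16.9% without overlap in the other direction. Among genes that averaged 100 or more counts the down-regulated share was 28.9% and the up-regulated share 25.3%. TUBB2A had the largest difference, at 0.653 of Ctrl (log2 -0.62 ± 0.04 SE, edgeR adjusted p = 9.57e-54), and the read-through entry of TUBB3 followed at 0.754 (log2 -0.41 ± 0.03 SE, edgeR adjusted p = 3.43e-38). The other 7 lay between -0.33 for TUBA4A and -0.22 for TUBB4B. These 9 calls were kept under every alternative except the 2-fold limit, which none met and 1.06% of all genes met. TUBB2B (log2 -0.09, edgeR adjusted p = 0.795) and the gene entry of TUBB3 (log2 -0.40, edgeR adjusted p = 0.393) were the exceptions. The values of CRLM1-OE against Anti are thus measured against the control with the lower tubulin level.

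Summed over all entries, tubulin took 0.210% ± 0.00352 of counts in CRLM1-OE, 0.207% ± 0.000950 in Ctrl samples and 0.182% ± 0.00209 in Anti (SD, n = 3). Summed alpha FPKM was 393, 356 and 381 in CRLM1-OE, 357, 367 and 358 in Ctrl samples and 315, 302 and 324 in Anti. Summed beta FPKM was 402, 400 and 391 in CRLM1-OE, 418, 416 and 414 in Ctrl samples and 364, 360 and 359 in Anti. CRLM1-OE overlapped Ctrl in the alpha sum and lay below it in the beta sum. The ratio of alpha to beta was 0.979, 0.889 and 0.973 in CRLM1-OE against 0.853 to 0.881 in Ctrl and 0.839 to 0.903 in Anti, so it was higher than in Ctrl and overlapped Anti.

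Shares within a class do not depend on the scaling between samples. TUBA1A made up 4.38, 5.10 and 4.67% of summed alpha FPKM in CRLM1-OE, 2.50, 2.63 and 2.45% in Ctrl samples and 2.45, 2.57 and 2.54% in Anti. Its share was higher in each CRLM1-OE sample than in any control, and the controls overlapped. TUBB2A made up 11.7, 11.5 and 11.7% of summed beta FPKM in CRLM1-OE, 8.33 to 8.46% in Ctrl samples and 6.52 to 6.85% in Anti, and its groups did not overlap. TUBB4B had 26.1, 25.4 and 26.0% in CRLM1-OE, 30.1 to 30.6% in Ctrl samples and 31.5 to 32.6% in Anti, the reverse order. The share of TUBB was between 44.8 and 46.4% in all 9 samples, and all groups overlapped. For a single value an exact permutation test of 3 against 3 samples cannot go below p = 0.1 (two-sided), so none was used for shares.

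**Figure D3:**
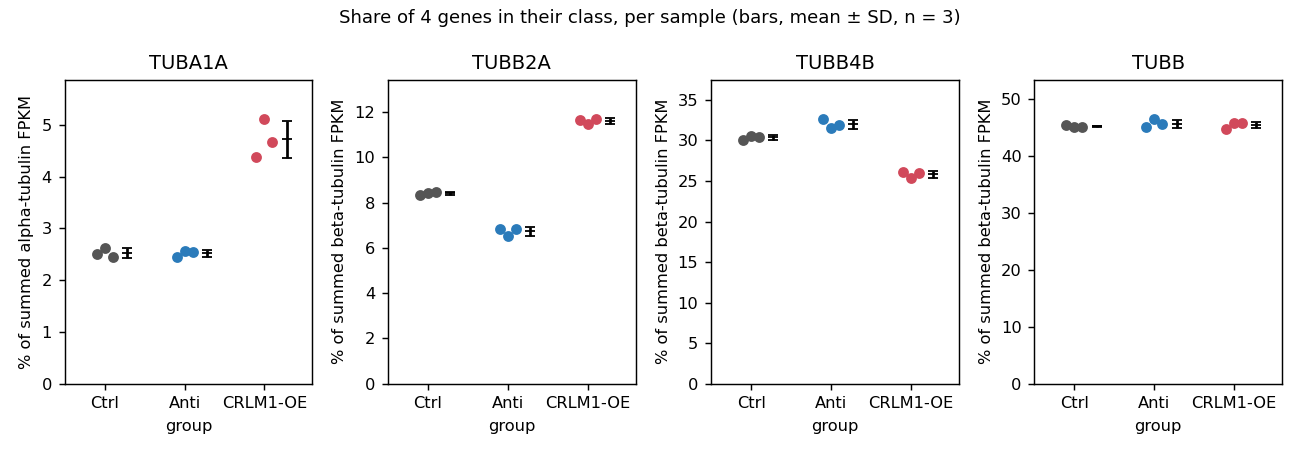
The panels plot the share (%) of TUBA1A in summed alpha-tubulin FPKM and of TUBB2A, TUBB4B and TUBB in summed beta-tubulin FPKM, with points for the 3 samples of each group and bars for the mean ± SD, on axes that start at 0. TUBA1A and TUBB2A are highest and TUBB4B lowest in CRLM1-OE, and the share of TUBB stays near 45% in all groups.

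The promoters of the 3 genes with the clearest differences are printed, since they moved in different directions. RefSeq (GRCh38.p14) windows from 250 bases before to 50 bases after each start were found for all 10 symbols and searched on both strands for the CCAAT box (CCAAT), the GC box (GGGCGG) and the TATA box (TATAAA). The lines give the 250 bases before the start in the direction of transcription, with hits in capitals (a reverse-strand hit appears as its complement). The line of TUBA1A covers chr12:49189081-49189330 (reverse), that of TUBB2A chr6:3157545-3157794 (reverse) and that of TUBB4B chr9:137241037-137241286 (forward).
TUBA1A: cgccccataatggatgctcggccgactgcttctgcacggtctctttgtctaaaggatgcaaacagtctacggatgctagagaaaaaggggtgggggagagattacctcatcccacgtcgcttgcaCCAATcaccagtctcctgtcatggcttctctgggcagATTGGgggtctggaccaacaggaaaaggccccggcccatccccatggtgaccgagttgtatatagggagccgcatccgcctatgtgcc
TUBB2A: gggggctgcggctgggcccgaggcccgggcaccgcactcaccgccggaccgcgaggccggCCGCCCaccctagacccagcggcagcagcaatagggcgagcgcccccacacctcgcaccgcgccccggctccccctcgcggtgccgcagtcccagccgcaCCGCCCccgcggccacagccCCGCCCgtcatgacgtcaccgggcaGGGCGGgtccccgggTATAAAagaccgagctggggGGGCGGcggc
TUBB4B: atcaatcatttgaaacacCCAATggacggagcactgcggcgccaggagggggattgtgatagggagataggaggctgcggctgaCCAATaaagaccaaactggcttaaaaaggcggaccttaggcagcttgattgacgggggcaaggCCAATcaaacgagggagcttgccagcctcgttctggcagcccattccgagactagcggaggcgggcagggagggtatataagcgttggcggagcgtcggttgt
TUBA1A held 2 CCAAT boxes, 125 and 88 bases before the start, and TUBB4B held 3, at 232, 166 and 103 bases. TUBB2A held 5 GC boxes and an exact TATAAA match 30 bases before the start, and no CCAAT box. None of these hits overlapped another. Only exact letters were searched, so variants, such as tatata in the lines of TUBA1A and TUBB4B, were not counted. Of 35116 promoters of this length, 32.0% held a CCAAT box, 42.6% a GC box and 10.7% a TATA box. A match describes letters in a window and shows no binding, and a link between motifs and the differences was not tested.

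Genes that act with tubulin were grouped into lists, and each list is given by its calls. These counts are to be read beside the shares among all genes that averaged 100 or more counts, which were 29.2% up and 38.8% down against Ctrl and 33.9% and 40.2% against Anti. Only 5 of the other tubulins, 2 stathmins, 17 binding proteins, 14 modifying enzymes and 5 severing enzymes reached that depth. For these lists the shares are therefore an unlike background, since genes with few counts are seldom called. Of the other tubulins, 12 were tested against Ctrl, and 2 were up- and 2 down-regulated, with a median log2 fold change of 0.02. These calls all fell among the 5 that averaged 100 or more counts. Against Anti, 3 were up- and 2 down-regulated. TUBG2, a gamma-tubulin, was at 8.87 ± 0.361 FPKM in CRLM1-OE, 5.88 ± 0.391 in Ctrl samples and 4.92 ± 0.231 in Anti, and rose against both (log2 0.48 and 0.80, edgeR adjusted p = 5.46e-11 and 1.34e-27). TUBB4A, a beta gene known from myelinating cells and neurons, was at 11.03 ± 0.624, 9.21 ± 0.657 and 6.40 ± 0.574 FPKM in the same order. It rose by log2 0.15 against Ctrl (edgeR adjusted p = 0.00911, but 0.0839 without CRLM1-OE replicate 1, 0.0694 without CRLM1-OE replicate 2 and 0.215 without Ctrl replicate 1) and by 0.74 against Anti (edgeR adjusted p = 6.23e-43), and like TUBB2A it was down-regulated in Anti against Ctrl (log2 -0.62, edgeR adjusted p = 6.4e-26). TUBE1, an epsilon-tubulin of centrioles, fell against both controls (log2 -0.21 and -0.44), the first of which did not pass with total counts (adjusted p = 0.416).

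The folding route of tubulin runs from prefoldin, which receives the nascent chain, through the CCT chaperonin to the tubulin cofactors, which assemble the heterodimer. All 8 CCT subunits were down-regulated in CRLM1-OE against Ctrl (median log2 fold change -0.18), beside 38.8% of genes of like depth, but with total counts 3 were down- and 1 up-regulated. Against Anti, 6 of 8 were down-regulated, beside 40.2%, and 3 down and 1 up with total counts. CCT8 (log2 -0.37 and -0.35), CCT5 (-0.33 and -0.37) and CCT6A (-0.29 and -0.44) fell against Ctrl and Anti under both scalings. Of 6 prefoldin subunits, 1 was up- and 1 down-regulated against Ctrl, and 5 were up-regulated against Anti, led by PFDN4 (log2 0.30 and 0.51). Of 7 cofactors, 4 were up- and 2 down-regulated against Ctrl and 2 and 1 against Anti. TBCEL, which can dismantle tubulin, fell by log2 0.37 and 0.61, while TBCD rose by 0.21 against Ctrl and TBCA, which holds free beta-tubulin, by 0.30 against Anti.

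The 3 autoregulation genes did not move together. TTC5 was up-regulated against Ctrl (log2 0.28, edgeR adjusted p = 2.31e-05) and Anti (0.18, edgeR adjusted p = 0.00797), the latter call lost without CRLM1-OE replicate 2 (adjusted p = 0.0597) or Anti replicate 3 (adjusted p = 0.0618). CNOT11 was down-regulated against both on the TMM scale (log2 -0.15 and -0.12) and not with total counts (-0.01 and -0.06), and SCAPER did not pass (edgeR adjusted p = 0.0936 and 0.661).

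Genes of microtubule nucleation, binding and modification moved in both directions. In the gamma-tubulin ring complex, which seeds microtubules, 2 of 9 were up- and 4 down-regulated against Ctrl and 2 were up-regulated against Anti. TUBGCP6 rose from 2.04 ± 0.0721 FPKM in Ctrl and 2.84 ± 0.162 in Anti to 4.66 ± 0.229 in CRLM1-OE (log2 1.07 and 0.67, edgeR adjusted p = 1.93e-74 and 9.84e-35). Of 19 microtubule-binding proteins tested, 8 were up- and 6 down-regulated against Ctrl and 9 and 8 against Anti, shares of the same order as those among genes of like depth. MAP2, which stabilises dendritic microtubules, rose by log2 0.83 and 0.98, from 0.693 ± 0.0252 FPKM in Ctrl to 1.33 ± 0.0321 (0.46 and 0.50 on log2(FPKM + 1), which compresses low levels), and the end-binding protein MAPRE2 rose by 0.75 and 0.84. Of the 4 stathmins, which sequester free tubulin, only STMN3 was called and fell (log2 -0.38 and -0.45). STMN1, less abundant than STMN3 (33.0 against 47.9 FPKM in Ctrl), did not pass (edgeR adjusted p = 0.556 and 0.661).

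Of 20 tubulin-modifying enzymes tested against Ctrl, 8 were up- and 3 down-regulated, with a median log2 fold change of 0.02, and against Anti 10 were up- and 5 down-regulated among 19. TTLL3, a glycylase, had the largest difference against either control among listed genes that averaged 100 or more counts, from 0.623 ± 0.110 FPKM in Ctrl and 0.567 ± 0.0252 in Anti to 1.88 ± 0.0929 in CRLM1-OE (log2 1.49 and 1.69, edgeR adjusted p = 4e-56 and 1.34e-70). On log2(FPKM + 1) these differences were 0.83 and 0.88. TTLL1, which belongs to a polyglutamylase of tubulin tails, rose by log2 0.73 and 0.89, and the alpha-tubulin acetylase ATAT1 by 0.78 against Anti. TTLL5, another polyglutamylase, fell by log2 0.57 against Ctrl and 0.77 against Anti, the first of which did not pass in limma (-0.40 with 0.1 added, adjusted p = 0.0595, and -0.23 with 1 added, adjusted p = 0.0744). Of 6 severing enzymes tested, 3 were up- and 2 down-regulated in each comparison, among them KATNA1, the catalytic katanin subunit, which rose by log2 0.28 and 0.69. With total counts, the up- and down-regulated genes against Ctrl numbered 2 and 0 for the other tubulins, 4 and 0 for prefoldin, 4 and 1 for the cofactors, 4 and 3 for the ring complex, 9 and 2 for the binding proteins, 12 and 2 for the modifying enzymes and 3 and 1 for the severing enzymes.

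**Figure D4:**
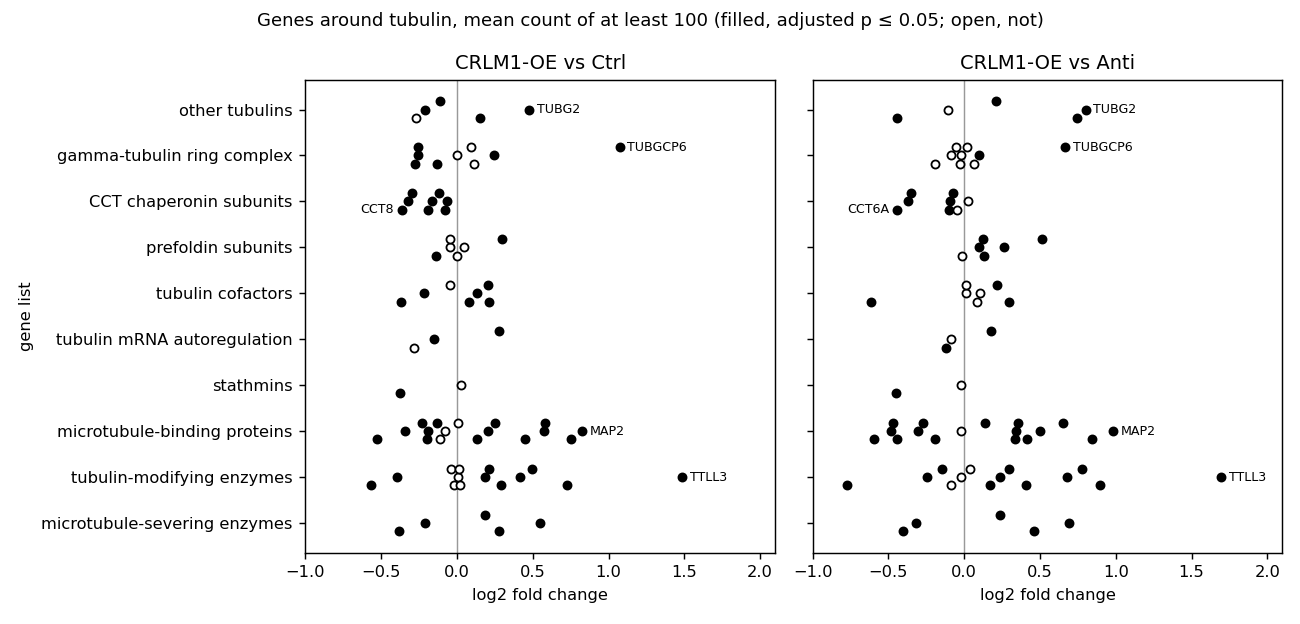
The panels plot the log2 fold change of each gene that averaged 100 or more counts in 10 lists of tubulin-related genes, for CRLM1-OE against Ctrl and against Anti, with filled points for an adjusted p of at most 0.05. The CCT subunits lie left of 0 against Ctrl, whereas most other lists spread to both sides, with TTLL3 farthest right.

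Other markers moved beside the tubulin genes. All 6 proliferation markers were down-regulated in CRLM1-OE against Ctrl (median log2 fold change -0.29), beside 38.8% of genes that averaged 100 or more counts, or 4 with total counts, and 5 against Anti under both scalings, beside 40.2%, among them MKI67 (log2 -0.45 and -0.65) and MCM2 (-0.33 and -0.68). Of 5 epithelial markers, 4 were down-regulated in each comparison (3 under total counts), KRT19 was up-regulated against Anti, and KRT18 fell by log2 1.00 against each control. Of the neuronal markers, only SYT1 was called, and it fell (log2 -0.47 and -0.70). It made up nearly all of the summed neuronal level of 4.96 to 5.41 FPKM in CRLM1-OE, 6.22 to 6.75 in Ctrl and 7.58 to 8.45 in Anti. MAPT, a microtubule-binding protein of axons that is not on the neuronal list, rose by log2 0.21 and 0.41. Other genes of its list went the other way. MAP1B fell by log2 0.47 against Anti and did not pass against Ctrl (-0.11, edgeR adjusted p = 0.0672). MAP1A, with few counts, fell by 0.87 against Anti (edgeR adjusted p = 0.0124) and did not pass against Ctrl (0.03, edgeR adjusted p = 0.980). Summed stromal markers, nearly all COL1A1, were at 2.18 to 2.56 FPKM in CRLM1-OE, 1.23 to 1.31 in Ctrl samples and 1.32 to 1.45 in Anti, and the remaining stromal markers were near 0. The part of proliferation and of cell state in the tubulin differences was not tested.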

How the data were processed

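Per the study's methods, the authors removed reads with more than 2 N bases, clipped adaptors and weak bases with the FASTX-Toolkit, and required 16 nt. TopHat2 placed the reads on GRCh38 (Gencode version 23, up to 4 mismatches). Raw gene counts from uniquely placed reads were deposited. A second deposited table holds FPKM (fragments scaled to exon length and library), rounded to 2 decimals. The tables list 31558 (counts) and 31268 (FPKM) genes that the authors called expressed.

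Samples were grouped by their labels. Counts were compared pairwise with edgeR 4.0.16 in R 4.3.3 (TMM, quasi-likelihood, no covariate) on the 6 samples of each comparison, over every gene with at least 1 count. Members and lists were chosen with earlier results of these data known. All members are named. Of each list, the 3 genes with the largest change among those with adjusted p of at most 0.05 and 100 or more counts on average are named. SCAPER, STMN1, MC1R, MAPT, MAP1A and MAP1B were added after their values were seen. Alternatives were RLE factors, total counts, filterByExpr, DESeq2 1.42.0, limma 3.58.1 on log2(FPKM + 0.1) and log2(FPKM + 1), a fit of all 9 samples, a replicate block, each replicate left out, summed TUBB3 entries and a 2-fold limit. The fits were tested on simulated data. Sequences were read with Biopython 1.88, and figures drawn with matplotlib 3.10.9. Coding ends of the alpha-tubulins are not reported here.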

Additional observations from a re-analysis of the deposited data

How the results depend on the processing

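Against Ctrl, the 2 up- and 5 down-regulated entries became 6 and 1 with total counts, 4 and 4 with filterByExpr, 4 and 1 in limma with 0.1 added to FPKM, 4 and 2 with 1 added, and 0 and 0 with the 2-fold limit, which left 1 of 8 up- and 0 of 1 down-regulated against Anti and 0 of 9 in Anti against Ctrl. With total counts and in limma with 0.1 and 1 added, in this order, signs turned against Ctrl for TUBA1B (0.054, 0.0238 and 0.0237), TUBA1C (0.041, 0.0140 and 0.0138) and the read-through entry of TUBB3 (0.117, 0.0900 and 0.0878, the first with adjusted p = 0.000447), and with total counts for PFDN5 (0.0029) against Ctrl and TUBB2B (0.0161) in Anti against Ctrl. Leaving out each replicate gave -0.0400 to 0.00693 for the read-through entry against Ctrl (positive without CRLM1-OE replicate 3), -0.20 to 0.11 for TUBB2B in Anti against Ctrl (positive without Anti replicate 1) and 0.23 to 0.55 for TUBB2B against Anti. Total counts moved the median of genes that averaged 100 or more counts by 0.141 against Ctrl, 0.059 against Anti and 0.105 in Anti against Ctrl. DESeq2 gave 2 and 4, 7 and 1, and 0 and 9. Of 155 member values per comparison, 128, 144 and 153 kept direction and side of the threshold. Replicate numbers did not pair the samples (correlations of same-numbered deviations from -0.105 to 0.0886), and the replicate block left 2 and 5, 8 and 1, and 0 and 9 entries called. TUBB2B and the gene entry of TUBB3, with 14 to 106 counts, are limited by depth.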

Other observations

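The genes most like TUBA1A and TUBB4B were sought by the root-mean-square difference of log2 CPM over the 9 samples, after the mean of Ctrl was subtracted, among 11702 genes that averaged 100 or more counts. RPL39P5 (0.0632) and FASN (0.0676), the fatty acid synthase, were nearest to TUBA1A. FASN differed by log2 0.78 from Ctrl and 0.98 from Anti in CRLM1-OE. HM13 (0.0264), a signal peptide peptidase, TRIM13 (0.0290) and GLTSCR2 (0.0306) were nearest to TUBB4B, with log2 differences from -0.43 to -0.41 against Ctrl and from -0.21 to -0.17 against Anti. With 9 samples in 3 groups, these values mainly describe group means.

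Of 16 listed genes with symbols of tubulin pseudogenes, 15 had under 10 counts in every sample. The exception, TUBBP5, had 89 to 123 counts in CRLM1-OE, 88 to 142 in Ctrl and 76 to 83 in Anti. It was lower in Anti than in Ctrl (log2 -0.60, edgeR adjusted p = 0.000489), and did not pass in CRLM1-OE against Ctrl (log2 -0.25, edgeR adjusted p = 0.195) or Anti (0.33, edgeR adjusted p = 0.093).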
